A study of Mus musculus with 12 samples.

Results

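The mouse collagen genes are the protein-coding genes whose symbol is Col, a number, the letter a and a number. Of the 54532 genes measured, 44 were collagen genes, and 22 of these reached 1 FPKM (fragments per kilobase of gene, with the depth divided out) in at least 3 of 12 libraries. The other 22 stayed below that level and were not tested. Bone marrow MSCs (mesenchymal stromal cells) were flushed from the long bones of 4-week-old mice and used at passage 3. Control cells (WT) were from Chd7fl/fl mice, which carry the floxed exon 2 of the chromatin remodeller gene Chd7 without Cre. Knockout cells (Chd7 KO) were from Prx1-cre;Chd7fl/fl mice, in which Cre is driven by a promoter of the early limb bud mesenchyme, so that cells outside that lineage keep Chd7. Both genotypes thus carried the floxed allele, on the C57BL6/J strain. RNA was taken on day 5 of induction. The osteogenic mixture combined ascorbic acid at 50 µM with dexamethasone at 10 nM and β-glycerophosphate at 10 mM. The adipogenic mixture held insulin at 10 µg per ml, dexamethasone at 1 µM and isobutylmethylxanthine at 0.5 µM, as the labels give it, and its supplements included no ascorbic acid. Each genotype and medium had 3 libraries. Whether these were separate mice is not stated, so the p-values measure the spread between libraries.

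Collagens are secreted proteins built from 3 chains wound into a triple helix, and each chain is the product of its own gene. Fibrillar collagens (types I, II, III, V, XI, XXIV and XXVII) form the banded fibrils of bone, tendon and cartilage, and type I is the main protein of bone matrix. Network collagens form sheets, such as type IV in basement membranes, type VIII below endothelia and type X in hypertrophic cartilage. FACIT collagens (fibril-associated collagens with interrupted triple helices) sit on fibrils, and beaded-filament collagens of type VI form fine filaments around cells. Ascorbic acid is needed by the enzymes that hydroxylate collagen chains.

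Between 17496340 and 21099587 fragments per library were recovered on genes. Chd7 itself was at 2.69 ± 0.07 FPKM (SD, n = 3) in WT and 2.22 ± 0.17 in Chd7 KO in osteogenic medium, and at 2.10 ± 0.26 and 2.29 ± 0.24 in adipogenic medium. Neither difference passed the test (limma, adjusted p = 0.16 and 0.428). A value over the whole gene does not read exon 2 alone and does not check the deletion, so the genotypes are those of the labels. WT adipogenic replicate 2 stood apart, with correlations of 0.939 and 0.943 with the other libraries of its group, which correlated at 0.989 with each other. Macrophage transcripts were abundant throughout. The macrophage marker list (10 genes, all above the filter) summed to between 11278 and 11737 FPKM in WT and between 13105 and 13358 in Chd7 KO in osteogenic medium. In adipogenic medium it summed to 7657 in WT replicate 2, 17173 and 17531 in the other WT libraries, and 5432 to 6861 in Chd7 KO. Most of each sum was Lyz2, at 8957 to 9355 FPKM in WT and 11033 to 11249 in Chd7 KO in osteogenic medium. By gene, 0 of the 10 markers passed the test as higher in Chd7 KO there and 1 as lower, against 4.94% and 4.15% of all genes. Their median log2 fold change was -0.13. The stromal marker list summed to between 498 and 628 FPKM over all libraries, most of it Itgb1 (317 to 412), with Thy1 at 1.03 or less. In such mixed RNA, fewer cells of a type and less RNA per cell cannot be told apart.

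The 22 collagen genes above the filter lay between 0.38 and 1073 FPKM. Col1a1, the α1 chain of type I collagen, was the highest. It was at 718, 587 and 642 FPKM in WT replicates 1 to 3 and at 744, 620 and 717 in Chd7 KO in osteogenic medium. Its adipogenic libraries were at 1073, 819 and 935 in WT and at 891, 906 and 905 in Chd7 KO. The genotypes overlapped in both media. Col1a1 held 39.5% ± 0.9 of all collagen FPKM in WT and 38.4% ± 1.0 in Chd7 KO in osteogenic medium, and 43.2% ± 1.4 and 37.3% ± 0.4 after adipogenic induction. All 44 genes together held 0.528% ± 0.049 and 0.578% ± 0.046 of the FPKM of a library in osteogenic medium. In adipogenic medium they held 0.640% ± 0.062 and 0.809% ± 0.018. Col27a1 was the member just inside the filter, with 1 FPKM reached in 3 libraries, all of them Chd7 KO in adipogenic medium. Col11a2 was just outside it, with 2 libraries.

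**Figure D1:**
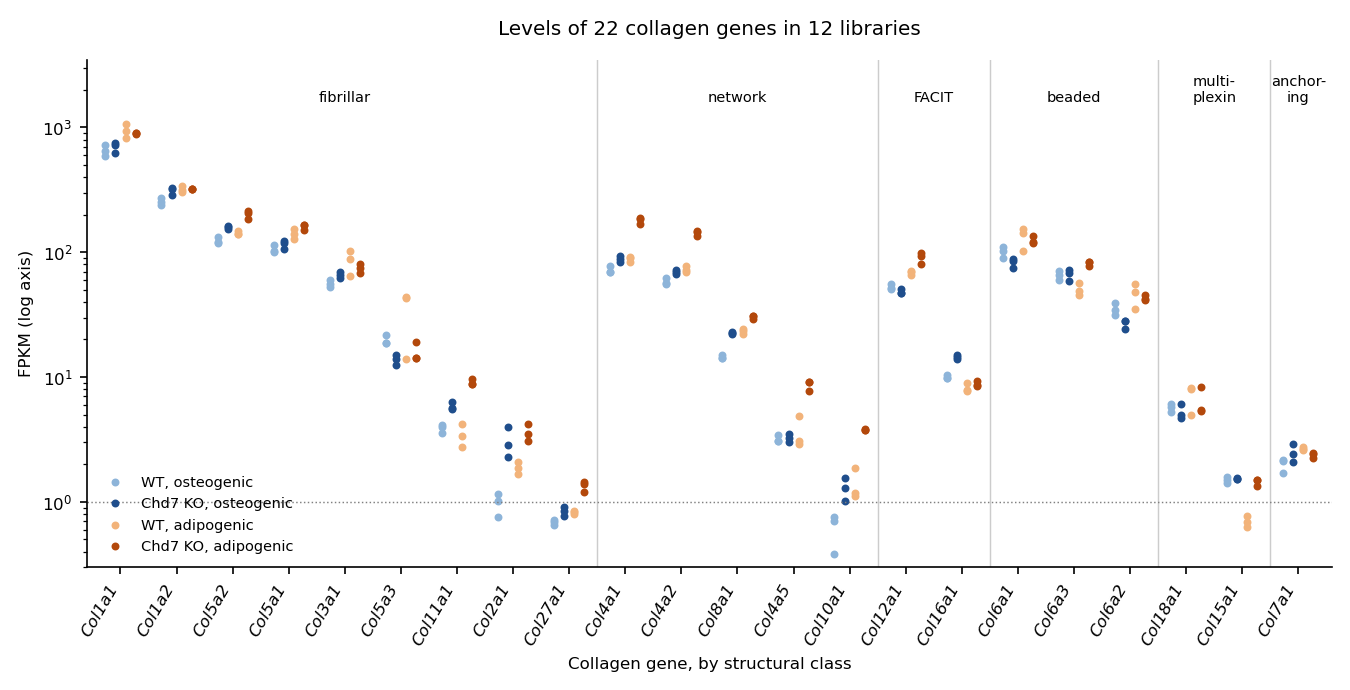
FPKM of the 22 collagen genes above the filter, on a log axis, with a point for each of the 12 libraries, coloured by genotype and medium. Genes are ordered by class and then by mean level, and the dotted line marks 1 FPKM. Col1a1 is at the top with 587 to 1073 FPKM, and Col4a1, Col4a2, Col4a5 and Col10a1 are among the genes separated from the other groups in the Chd7 KO adipogenic libraries.

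In adipogenic medium, 12 collagen genes rose in Chd7 KO and none fell. These are 54.5% of the 22 tested, against 16.7% of all 12871 genes called higher, 16.5% called lower and 33.2% called in either direction (limma on log2(FPKM + 1), adjusted p under 0.05). At an unadjusted p under 0.05, 1 gene (Col5a3) was lower, and limma voom on the recovered fragments called 12 higher and 0 lower among 4198 calls in all. The 12 include Col27a1, which passed the filter through the Chd7 KO adipogenic libraries alone, and without it 11 of 21 genes (52.4%) rose. In 12 genes every Chd7 KO library lay above every WT library and in 1 gene (Col7a1) below, against 20.2% and 18.4% of all genes. The median log2 fold change was 0.37 for the collagen genes and -0.01 for all genes tested. All 5 network genes above the filter rose, with a median log2 fold change of 1.01, while 4 of 9 fibrillar, 1 of 2 FACIT, 1 of 3 beaded, 1 of 2 multiplexin and 0 of 1 anchoring fibril genes did. In osteogenic medium, 9 collagen genes rose and none fell, 40.9% of the 22 tested, against 4.94% of all genes called higher, 4.15% called lower and 9.09% in either direction. At an unadjusted p under 0.05, 1 gene (Col6a2) was lower, and limma voom called 9 higher and 0 lower among 1208 calls in all. The libraries of the genotypes lay apart in 14 genes, 11 with Chd7 KO higher and 3 (Col5a3, Col6a1 and Col6a2) lower, against 21.0% and 23.2% of all genes. The median log2 fold change was 0.18 there, against -0.01 for all genes. Of the classes, 4 of 5 network, 4 of 9 fibrillar and 1 of 2 FACIT genes rose in osteogenic medium, and no beaded, multiplexin or anchoring fibril gene did. The 7 genes that rose in both media were Col2a1, Col4a1, Col4a2, Col5a2, Col8a1, Col10a1 and Col11a1. The media did not share libraries.

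With 1 library left out of the fit of 12, the calls in adipogenic medium were the steadier set. They numbered 12 with any of 5 libraries left out, among 2791 to 3843 calls over all genes. Without WT replicate 2 there were 15 (13 higher, 2 lower), when Col16a1 was called higher and Col3a1 and Col5a3 lower. That fit called 6569 of all 12871 genes, 3123 higher and 3446 lower. In osteogenic medium the calls fell to 7 without WT replicate 1, 4 without WT replicate 2, 5 without WT replicate 3, 4 without Chd7 KO replicate 1, 6 without Chd7 KO replicate 2 and 4 without Chd7 KO replicate 3. Over all genes these fits called 532 to 670, against 1170 in the main fit. Col2a1, Col5a2, Col8a1 and Col16a1 kept their call in each of these 6 fits. With every library brought to the same sum of FPKM, 3 osteogenic calls were left (Col2a1, Col8a1 and Col16a1), among 526 over all genes. With only the 6 libraries of a comparison in the fit, adipogenic medium had 12 higher and 0 lower (1013 and 658 over all genes). Osteogenic medium had 10 higher and 2 lower (1677 and 1741 over all genes). The 2 lower were Col5a3 and Col6a2, and Col3a1 joined those higher. The replicate number as a block in these fits gave 10 higher and 3 lower in osteogenic medium, Col6a1 among the latter (1392 and 1404 over all genes). In adipogenic medium it gave 7 higher and 0 lower (468 and 258 over all genes). Scaling to the stromal marker sum brought the median of all genes to -0.16 in osteogenic and -0.14 in adipogenic medium. In osteogenic medium 6 collagen genes were then called higher and 3 lower (356 and 3320 over all genes). The 3 lower were Col6a1, Col6a2 and Col12a1. Most of the stromal sum was Itgb1, which was itself called higher in Chd7 KO in both media.

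**Figure D2:**
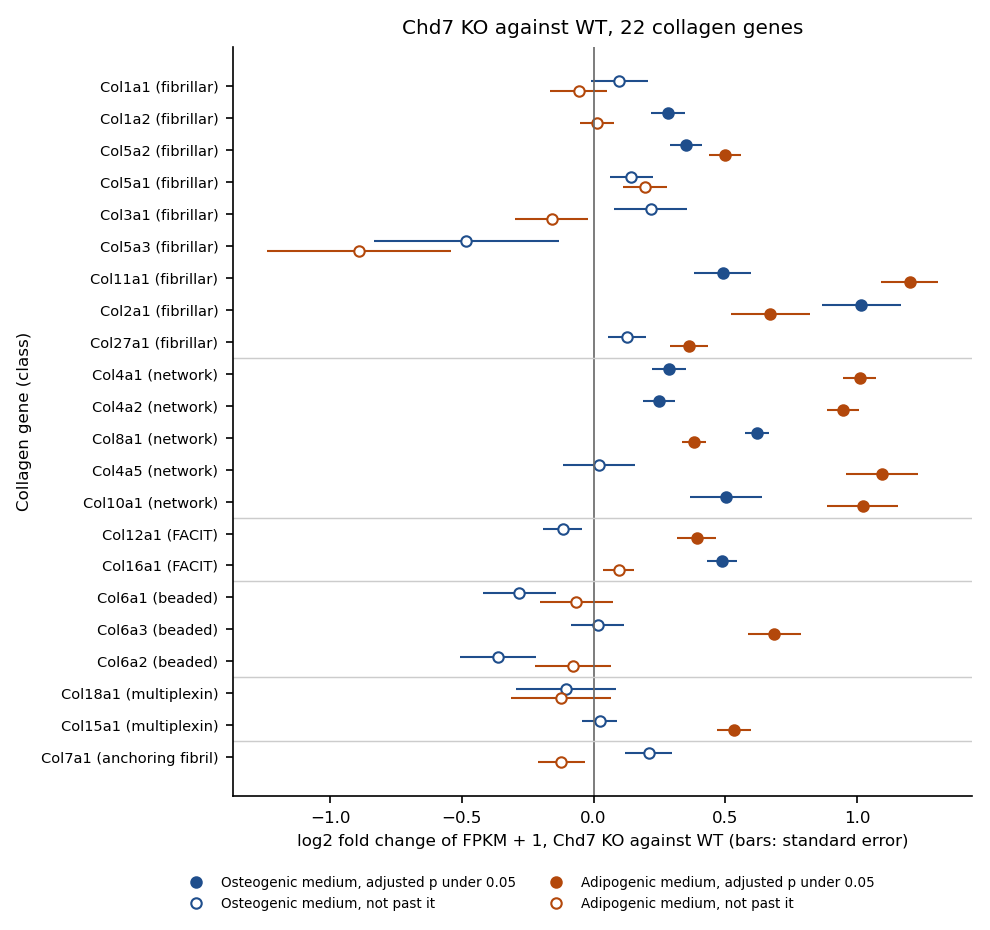
Log2 fold change of FPKM + 1 between Chd7 KO and WT for the 22 collagen genes, grouped by class, in osteogenic (blue) and adipogenic (orange) medium, with standard errors as bars. Filled points have an adjusted p under 0.05. All filled points are above 0, and the 5 network genes are all filled in adipogenic medium.

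The network genes had the highest class median of the genotype change in adipogenic medium. Col4a1 and Col4a2 encode the α1 and α2 chains, which assemble together into the type IV collagen of nearly all basement membranes. Col4a1 lies at chr8:11198423-11312826 on the minus strand and Col4a2 at chr8:11312805-11449287 on the plus strand (GENCODE M21, GRCm38), head to head with their annotated starts 21 bases apart. Col4a5, the α5 chain of a rarer type IV network, lies at chrX:141475385-141689234 and has a neighbour on the other strand, Col4a6, whose start lies 1343 bases from that of Col4a5 in RefSeq. The windows from 250 bases before to 50 bases after each start (RefSeq, GRCm38.p6) are shown because the first pair has overlapping windows and like levels, while the second pair has separate windows and unlike levels. Capitals mark CCAAT or its reverse complement ATTGG. The Col4a1 window is chr8:11312777-11313076, minus strand, and that of Col4a2 chr8:11312555-11312854, plus strand, so that they share 78 bases. The Col4a5 window is chrX:141475169-141475468, plus strand, and that of Col4a6 chrX:141474027-141474326, minus strand.
Col4a1: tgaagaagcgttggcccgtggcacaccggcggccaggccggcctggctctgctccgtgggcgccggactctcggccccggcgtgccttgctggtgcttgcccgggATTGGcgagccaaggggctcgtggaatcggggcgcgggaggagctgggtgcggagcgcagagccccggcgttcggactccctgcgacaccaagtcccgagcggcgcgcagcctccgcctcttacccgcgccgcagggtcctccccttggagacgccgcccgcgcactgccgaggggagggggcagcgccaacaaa
Col4a2: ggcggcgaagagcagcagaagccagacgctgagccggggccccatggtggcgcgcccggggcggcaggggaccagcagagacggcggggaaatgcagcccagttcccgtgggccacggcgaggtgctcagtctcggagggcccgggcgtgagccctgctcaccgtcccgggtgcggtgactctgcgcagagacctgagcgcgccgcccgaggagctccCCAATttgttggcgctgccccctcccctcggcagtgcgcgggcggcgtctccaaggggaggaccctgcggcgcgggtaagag
Col4a5: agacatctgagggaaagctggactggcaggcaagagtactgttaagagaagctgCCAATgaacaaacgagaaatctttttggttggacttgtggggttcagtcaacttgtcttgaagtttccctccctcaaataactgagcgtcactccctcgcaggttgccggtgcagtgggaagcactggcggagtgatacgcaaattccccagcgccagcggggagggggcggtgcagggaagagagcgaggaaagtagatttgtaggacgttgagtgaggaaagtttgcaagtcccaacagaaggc
Col4a6: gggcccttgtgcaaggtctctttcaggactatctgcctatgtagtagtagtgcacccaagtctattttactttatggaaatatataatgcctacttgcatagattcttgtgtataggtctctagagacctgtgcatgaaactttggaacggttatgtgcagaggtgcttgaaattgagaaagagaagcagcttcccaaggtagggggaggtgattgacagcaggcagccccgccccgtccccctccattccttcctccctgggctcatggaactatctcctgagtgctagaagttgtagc
The CCAAT letters start 145 bases before the annotated start of Col4a1, 32 bases before that of Col4a2 and 196 bases before that of Col4a5. The Col4a6 window holds none. On either strand CCAAT occurred in 37.4% of the 32851 windows of the same length in the mouse table, and in the windows of 41.1% of the 27025 genes that have any. It occurred in 9 of the 18 collagen genes above the filter that have a window and in 4 of the 17 below it.

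Col4a1 was at 76.9, 69.1 and 70.1 FPKM in WT and at 92.5, 83.6 and 88.0 in Chd7 KO in osteogenic medium. After adipogenic induction, values were 90.5, 91.3 and 84.1 in WT and 167, 187 and 184 in Chd7 KO. The genotypes did not overlap in either medium, and the Chd7 KO adipogenic libraries lay above all 9 others. Its mean was 1.22-fold higher in Chd7 KO in osteogenic medium (log2 fold change 0.29 ± 0.06 (SE), adjusted p = 0.0205) and 2.03-fold higher in adipogenic medium (1.01 ± 0.06, adjusted p = 4.6e-06).

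Col4a2 was at 62.4, 57.1 and 55.3 FPKM in WT and at 71.5, 66.5 and 70.0 in Chd7 KO in osteogenic medium. The adipogenic libraries held 77.5, 72.3 and 70.1 in WT and 134, 145 and 147 in Chd7 KO. It thus had the same order of groups as Col4a1. The change was 1.19-fold in osteogenic medium (log2 0.25 ± 0.06, limma adjusted p = 0.0316) and 1.94-fold in adipogenic medium (0.95 ± 0.06, adjusted p = 5.2e-06). The ratio of Col4a1 to Col4a2 FPKM was 1.24 ± 0.03 and 1.27 ± 0.02 in WT and Chd7 KO in osteogenic medium, and 1.21 ± 0.05 and 1.26 ± 0.02 after adipogenic induction (exact permutation test, two-sided, p = 0.3 in each, where 3 against 3 cannot go below 0.1). Both osteogenic calls were lost when the sum of FPKM was made equal (adjusted p = 0.224 for Col4a1 and 0.251 for Col4a2). Col4a1 also lost it without WT replicate 2 or 3 or Chd7 KO replicate 1 or 3 (adjusted p = 0.0736 to 0.0888), and Col4a2 without any library but WT replicate 1 (0.0529 to 0.12). The adipogenic calls held in every alternative.

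Col4a5 was at 3.41, 3.08 and 3.06 FPKM in WT and at 3.00, 3.23 and 3.51 in Chd7 KO in osteogenic medium, where the genotypes overlapped. Its adipogenic libraries were at 2.89, 4.84 and 3.08 in WT and at 7.71, 9.19 and 9.14 in Chd7 KO. There the groups were apart, with WT replicate 2 the highest of the WT libraries. It rose 2.41-fold in adipogenic medium (log2 1.09 ± 0.14, adjusted p = 0.00031), while the osteogenic values gave 0.02 ± 0.14 (adjusted p = 0.954). Its neighbour Col4a6 stayed between 0.0075 and 0.0401 FPKM in all 12 libraries, on 43 fragments in all. Col4a3 and Col4a4, the partners of Col4a5 in the basement membrane of the kidney, were at or below 0.0962 and 0.0569 FPKM.

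Col8a1, the α1 chain of the short network collagen VIII, was at 14.9, 14.1 and 14.3 FPKM in WT and at 22.3, 22.7 and 23.1 in Chd7 KO in osteogenic medium. After adipogenic induction, values were 24.1, 21.9 and 23.2 in WT and 29.2, 31.0 and 31.0 in Chd7 KO. The genotypes were apart in both media, and WT adipogenic and Chd7 KO osteogenic libraries overlapped. It rose 1.57-fold in osteogenic (log2 0.62 ± 0.05, adjusted p = 7.2e-05) and 1.32-fold in adipogenic medium (0.38 ± 0.05, adjusted p = 0.00023). Its partner chain Col8a2 stayed at or below 0.414 FPKM. Col10a1, the collagen of hypertrophic chondrocytes, was at 0.757, 0.380 and 0.705 FPKM in WT and at 1.55, 1.02 and 1.28 in Chd7 KO in osteogenic medium. The adipogenic libraries held 1.19, 1.86 and 1.12 in WT and 3.84, 3.80 and 3.78 in Chd7 KO. The genotypes did not overlap, on 20 to 226 fragments per library. It rose 2.74-fold in adipogenic medium (log2 1.02 ± 0.14, adjusted p = 0.00045). The osteogenic value (log2 0.50 ± 0.14, adjusted p = 0.0469) did not stay past the threshold when any of the 6 libraries was left out (0.0569 to 0.168).

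Endothelial, smooth muscle, osteoblast and adipocyte markers were read in the same comparisons as the type IV and VIII chains, and not all of them moved with these chains. Of the 10 endothelial markers, 5 passed the filter, and 3 of them rose in each medium, where 4.94% (osteogenic) and 16.7% (adipogenic) of all genes did. Their sum was 6.78 to 7.12 FPKM in WT and 12.8 to 13.9 in Chd7 KO in osteogenic medium, and 6.23 to 6.59 and 9.69 to 11.7 after adipogenic induction. Cldn5 had 3 fragments or fewer per library. Emcn was at 0.345 to 0.765 FPKM in WT and 1.52 to 2.10 in Chd7 KO, and Cdh5 at 0.552 to 1.23 and 2.03 to 3.15. Neither would have passed the filter on the WT libraries alone, so the filter favoured markers that are higher in Chd7 KO. Of the 10 smooth muscle markers, 8 passed the filter, and 3 rose in osteogenic medium and 6 rose and 1 fell in adipogenic medium. Their sum was 763 to 802 and 1004 to 1057 FPKM in osteogenic medium, and 878 to 1229 and 1390 to 1594 after adipogenic induction. Of the 10 osteoblast markers, 8 passed the filter, and 2 rose and 1 fell in osteogenic medium and 6 rose and 0 fell in adipogenic medium. Their sum, most of it Spp1, was 1280 to 1520 and 2092 to 2238 FPKM in osteogenic medium, and 910 to 934 and 1115 to 1292 after adipogenic induction. Dmp1 had 3 fragments or fewer per library. Of the 10 adipocyte markers, 5 passed the filter, and 0 rose and 2 fell in osteogenic medium and 3 rose and 0 fell in adipogenic medium. Their sum was 253 to 265 and 183 to 199 FPKM in osteogenic medium, and 113 to 171 and 177 to 225 after adipogenic induction, and Cidec and Lep had 3 fragments or fewer per library. The part of these markers in the collagen values was not tested.

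**Figure D3:**
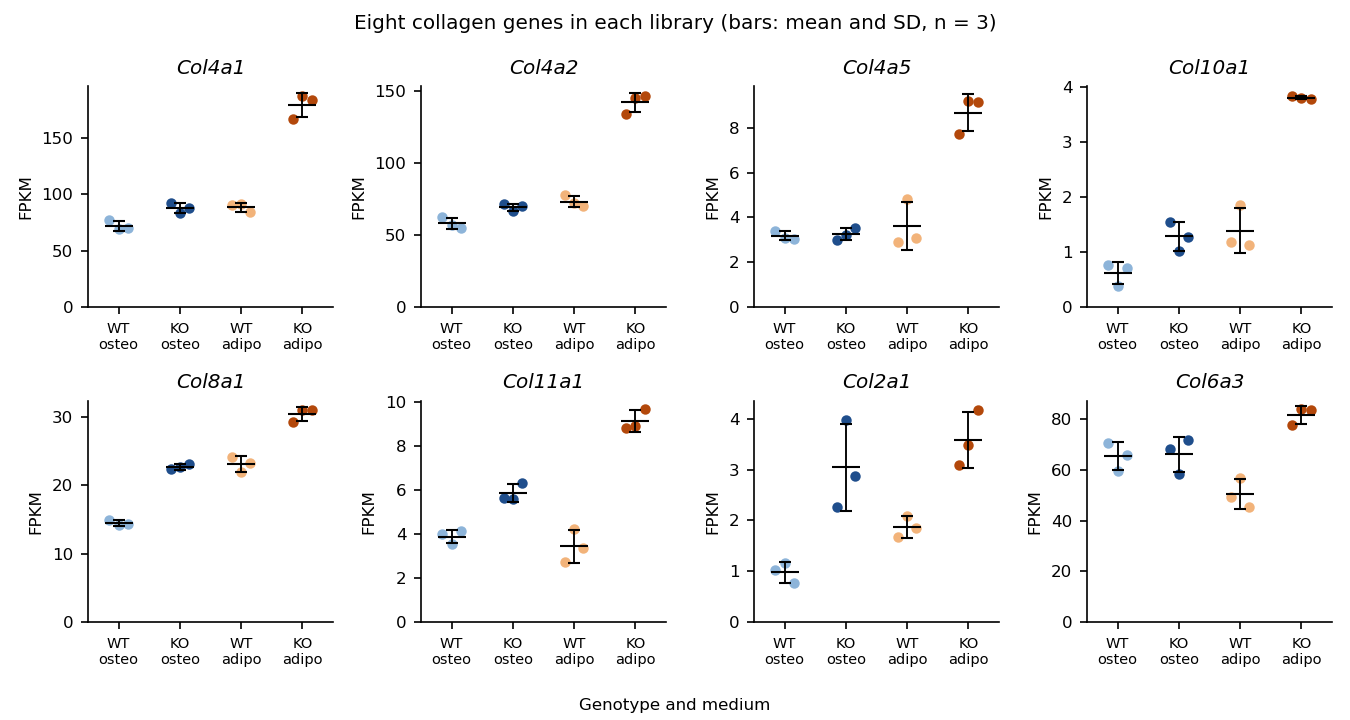
FPKM of 8 collagen genes in each library, on linear axes from 0, with the mean and SD of the 3 libraries of a group as bars. Col4a1, Col4a2, Col4a5, Col6a3, Col8a1, Col10a1 and Col11a1 are highest in the Chd7 KO adipogenic libraries with no overlap with another group. Col2a1 is higher in Chd7 KO than in WT in both media.

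The fibrillar genes with the largest rises were expressed at low levels. Col11a1, the α1 chain of type XI collagen, which nucleates fibrils, was at 3.97, 3.54 and 4.12 FPKM in WT and at 5.63, 5.59 and 6.31 in Chd7 KO in osteogenic medium. Its adipogenic libraries were at 2.73, 4.23 and 3.36 in WT and at 8.81, 8.87 and 9.68 in Chd7 KO. No Chd7 KO library overlapped the WT libraries of its medium. It rose 2.65-fold in adipogenic medium (log2 1.20 ± 0.11, adjusted p = 4.3e-05). That was the largest change of the collagen genes there on the log2(FPKM + 1) scale, while Col10a1 had the larger ratio of means (2.74-fold). In osteogenic medium Col11a1 rose 1.51-fold (0.49 ± 0.11, adjusted p = 0.0203). The osteogenic call held among the left-out fits only without WT replicate 3, and adjusted p was 0.0512 to 0.0877 in the others. Col2a1, the cartilage fibril chain, was at 1.01, 1.15 and 0.759 FPKM in WT and at 2.27, 3.98 and 2.88 in Chd7 KO in osteogenic medium. After adipogenic induction, values were 1.67, 2.09 and 1.86 in WT and 3.09, 3.49 and 4.18 in Chd7 KO. The genotypes were apart in both. Its mean was 3.12-fold higher in osteogenic (log2 1.02 ± 0.15, adjusted p = 0.0028) and 1.92-fold higher in adipogenic medium (0.67 ± 0.15, adjusted p = 0.0076).

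The other defining genes of chondrocytes were at low levels throughout. Of the 10 chondrocyte markers, 1 passed the filter. It was Sox9, the transcription factor of cartilage, which rose from 1.07 to 2.02 FPKM in adipogenic medium (log2 0.56 ± 0.13, limma adjusted p = 0.0107) and was at 1.54 and 1.65 in osteogenic medium (adjusted p = 0.842). The list summed to 1.91 to 2.46 FPKM in WT and 2.31 to 2.64 in Chd7 KO in osteogenic medium, and to 1.23 to 2.08 and 2.87 to 3.42 in adipogenic medium. Snorc was at 0 in all 12 libraries, Cnmd and Ucma had 3 fragments or fewer, and Acan was at 0 in all WT libraries and at most 0.113 FPKM in Chd7 KO. Col9a1, Col9a2 and Col9a3, whose chains coat cartilage fibrils, were all at or below 0.505 FPKM. The part of the markers in the values of Col2a1, Col10a1 and Col11a1 was not tested.

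Col5a2 and Col27a1 were the other fibrillar genes that rose in adipogenic medium. Col5a2, a chain of type V collagen, which limits fibril width, was at 124 ± 7 FPKM in WT and 158 ± 4 in Chd7 KO in osteogenic medium (log2 0.35 ± 0.06, limma adjusted p = 0.0064) and at 142 ± 4 and 201 ± 15 in adipogenic medium (0.50 ± 0.06, adjusted p = 0.00027). Its osteogenic call was lost with an equal sum of FPKM (adjusted p = 0.0828). Col27a1, a fibrillar chain found in cartilage, was at 0.824 ± 0.019 in WT and 1.35 ± 0.13 in Chd7 KO in adipogenic medium (log2 0.36 ± 0.07, adjusted p = 0.0045). It was kept by the filter through that group alone. Col1a2, the α2 chain of type I collagen, was at 255 ± 17 and 311 ± 21 FPKM in osteogenic medium (log2 0.28 ± 0.07, adjusted p = 0.0242), a call that was lost without WT replicate 2 or 3 or Chd7 KO replicate 1 or 3 (0.0826 to 0.105). The adipogenic libraries held 320 ± 16 and 322 ± 1.

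Col1a1, Col5a1, Col3a1 and Col5a3 did not pass the test in either medium in the fit of all 12 libraries. Col1a1 had a log2 fold change of 0.10 ± 0.11 in osteogenic and -0.06 ± 0.11 in adipogenic medium. Col5a1, the α1 chain of type V, was at 106 ± 7 and 117 ± 9 FPKM in WT and Chd7 KO in osteogenic medium, and at 140 ± 12 and 160 ± 9 in adipogenic medium (adjusted p = 0.0938, or 0.0132 with an equal sum of FPKM). The ratio of Col5a1 to Col5a2 was 0.850 ± 0.015 in WT and 0.736 ± 0.037 in Chd7 KO in osteogenic medium, and 0.986 ± 0.063 and 0.798 ± 0.024 after adipogenic induction, with no overlap in either (exact permutation test, two-sided, p = 0.1, the smallest possible). Col3a1, which lies next to Col5a2 on chromosome 1, was at 84.9 ± 19.0 FPKM in WT and 74.7 ± 5.5 in Chd7 KO in adipogenic medium. Without WT replicate 2 its log2 fold change was -0.35 (adjusted p = 0.0062). Col5a3, another type V chain, was at 19.6 ± 1.7 FPKM in WT and 13.8 ± 1.3 in Chd7 KO in osteogenic medium, with no overlap. Its osteogenic change (log2 -0.48 ± 0.35) had a limma adjusted p of 0.467, or 0.0064 with only those 6 libraries in the fit. In adipogenic medium it was at 43.9, 13.8 and 43.2 FPKM in WT and at 19.0, 14.1 and 14.2 in Chd7 KO. WT replicate 2 was below every Chd7 KO library, and without it the log2 fold change was -1.42 (adjusted p = 1.2e-05) instead of -0.89 (adjusted p = 0.075). The macrophage list summed to 2.24-fold and 2.29-fold more in the other WT libraries than in that library, and its part in the value of Col5a3 was not tested.

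The beaded-filament genes split by chain. Type VI collagen is assembled from Col6a1, Col6a2 and usually Col6a3. Col6a1 was at 110, 89.9 and 102 FPKM in WT and at 87.6, 74.7 and 84.4 in Chd7 KO in osteogenic medium. Its adipogenic libraries were at 153, 102 and 143 in WT and at 134, 122 and 119 in Chd7 KO. The osteogenic groups did not overlap, with Chd7 KO lower, but the change did not pass the test (log2 -0.28 ± 0.14, adjusted p = 0.259). Col6a2, its neighbour on chromosome 10, moved with it, and was called lower with only the 6 osteogenic libraries in the fit (limma adjusted p = 0.0268). Col6a1 was at 2.88 ± 0.08 and 3.07 ± 0.07 times Col6a2 in osteogenic medium, where the genotypes did not overlap (exact permutation test, two-sided, p = 0.1), and at 2.88 ± 0.09 and 2.90 ± 0.04 times in adipogenic medium (p = 0.8). Col6a3, on chromosome 1, was at 70.6, 59.6 and 66.1 FPKM in WT and at 68.2, 58.5 and 72.0 in Chd7 KO in osteogenic medium. After adipogenic induction, values were 49.3, 57.0 and 45.4 in WT and 77.6, 83.9 and 83.5 in Chd7 KO, with no overlap. It rose 1.61-fold there (log2 0.69 ± 0.10, adjusted p = 0.00073). The ratio of Col6a3 to Col6a1 was 0.652 ± 0.010 in WT and 0.805 ± 0.042 in Chd7 KO in osteogenic medium, and 0.399 ± 0.138 and 0.656 ± 0.067 after adipogenic induction, with no overlap in either (exact permutation test, two-sided, p = 0.1 in each, the smallest possible).

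The remaining classes held 5 genes above the filter. Col12a1, the main FACIT collagen of fibril surfaces, was at 55.8, 52.2 and 50.4 FPKM in WT and at 47.4, 47.3 and 51.0 in Chd7 KO in osteogenic medium. The adipogenic libraries held 70.6, 65.9 and 69.8 in WT and 80.7, 99.1 and 92.4 in Chd7 KO, where it rose 1.32-fold (log2 0.39 ± 0.07, adjusted p = 0.0031). Col16a1, the other FACIT gene, rose in osteogenic medium, from 10.0 ± 0.3 to 14.4 ± 0.5 FPKM (log2 0.49 ± 0.06, adjusted p = 0.00095), and was at 8.18 ± 0.68 and 8.79 ± 0.41 in adipogenic medium, a difference called only without WT replicate 2 (adjusted p = 0.0201). Col15a1, a basement membrane multiplexin, was at 1.41, 1.49 and 1.59 FPKM in WT and at 1.54, 1.53 and 1.52 in Chd7 KO in osteogenic medium. Its adipogenic libraries were at 0.633, 0.768 and 0.690 in WT and at 1.35, 1.50 and 1.51 in Chd7 KO. The WT adipogenic libraries were below all 9 others, and the genotypes differed 2.09-fold there (log2 0.53 ± 0.07, adjusted p = 0.00027). Col18a1, the multiplexin that releases endostatin, was at 6.13, 5.21 and 5.76 FPKM in WT and at 6.09, 4.69 and 4.96 in Chd7 KO in osteogenic medium. After adipogenic induction, values were 8.22, 4.97 and 8.04 in WT and 8.39, 5.32 and 5.49 in Chd7 KO. These groups overlapped, with WT replicate 2 and Chd7 KO replicate 1 unlike the rest of their groups. Col7a1, the anchoring fibril collagen of skin, was at 2.17, 1.69 and 2.11 FPKM in WT and at 2.41, 2.10 and 2.88 in Chd7 KO in osteogenic medium, and at 2.62, 2.64 and 2.75 against 2.43, 2.23 and 2.46 in adipogenic medium. It passed the test in neither medium (adjusted p = 0.195 and 0.322).

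The genotype effect differed between the media for 9 collagen genes (limma, interaction of genotype and medium, adjusted p under 0.05). It was more positive in adipogenic medium for 7 of 22 and more negative for 2, against 10.9% and 9.58% of all genes tested and 20.4% in either direction. The 7 were Col4a5 (difference of log2 fold changes 1.07 ± 0.19, adjusted p = 0.0041), Col4a1 (0.72 ± 0.09, 0.00053), Col11a1 (0.71 ± 0.15, 0.01), Col4a2 (0.70 ± 0.09, 0.0005), Col6a3 (0.67 ± 0.14, 0.009), Col12a1 and Col15a1 (0.51 ± 0.10 and 0.51 ± 0.09). Each kept its call in all 12 fits with a library left out. Col16a1 (-0.39 ± 0.08, adjusted p = 0.0091) and Col8a1 (-0.24 ± 0.06, adjusted p = 0.0286) had the larger effect in osteogenic medium. Both calls were lost with an equal sum of FPKM, which moved the median of all genes in this contrast to 0.16. That left 7 calls more positive and 0 more negative (1716 and 564 over all genes). Col8a1 also lost its call in 7 of 12 left-out fits. Without WT adipogenic replicate 2, 8 collagen genes were more positive and 5 more negative (2539 and 2895 over all genes).

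The medium was compared within each genotype. In Chd7 KO, 14 collagen genes were higher in adipogenic than in osteogenic medium and Col16a1 was lower (log2 -0.66 ± 0.06, limma adjusted p = 4.3e-05), 15 of 22 against 27.9% of all genes called (13.9% higher, 14.0% lower). The 14 include Col27a1, which passed the filter through the Chd7 KO adipogenic libraries alone, and without it 13 of 21 genes (61.9%) were higher. The libraries of the media lay apart in 14 genes higher and 2 lower (Col15a1 and Col16a1) in adipogenic medium, against 26.0% and 26.5% of all genes. The largest were Col4a5 (log2 1.19 ± 0.14), Col10a1 (1.08 ± 0.14), Col4a2 (1.03 ± 0.06), Col4a1 (1.02 ± 0.06) and Col12a1 (0.88 ± 0.07). With a library left out the calls numbered 13 to 15, among 2500 to 2864 over all genes, and Col1a1 and Col6a3 lost theirs in several of these fits. In WT, 12 were higher and 3 lower (Col6a3, Col15a1 and Col16a1), against 22.8% of all genes called (10.5% higher, 12.3% lower), and libraries lay apart in 13 genes higher and the same 3 genes lower, against 16.2% and 18.3%. The WT comparison rested on how its libraries were weighed. It gave 9 calls without WT adipogenic replicate 1 or 3 (1394 and 1361 over all genes). Without replicate 2 it gave 20 (16 higher, 4 lower), among 6156 over all genes. With only these 6 libraries in the fit it gave 3 (Col8a1, Col12a1 and Col15a1), among 490 over all genes. With an equal sum of FPKM there were 3 higher and 3 lower (647 and 1458 over all genes). Col8a1 (log2 0.64 ± 0.05, adjusted p = 5.5e-05), Col12a1 (0.38 ± 0.07, 0.0076) and Col15a1 (-0.56 ± 0.07, 0.00066) stayed called with any 1 library left out. So did Col1a1, Col1a2, Col4a1, Col4a2 and Col5a1, which were not called in the fit of these 6 libraries alone. The comparisons within a genotype share their libraries with those within a medium.

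**Figure D4:**
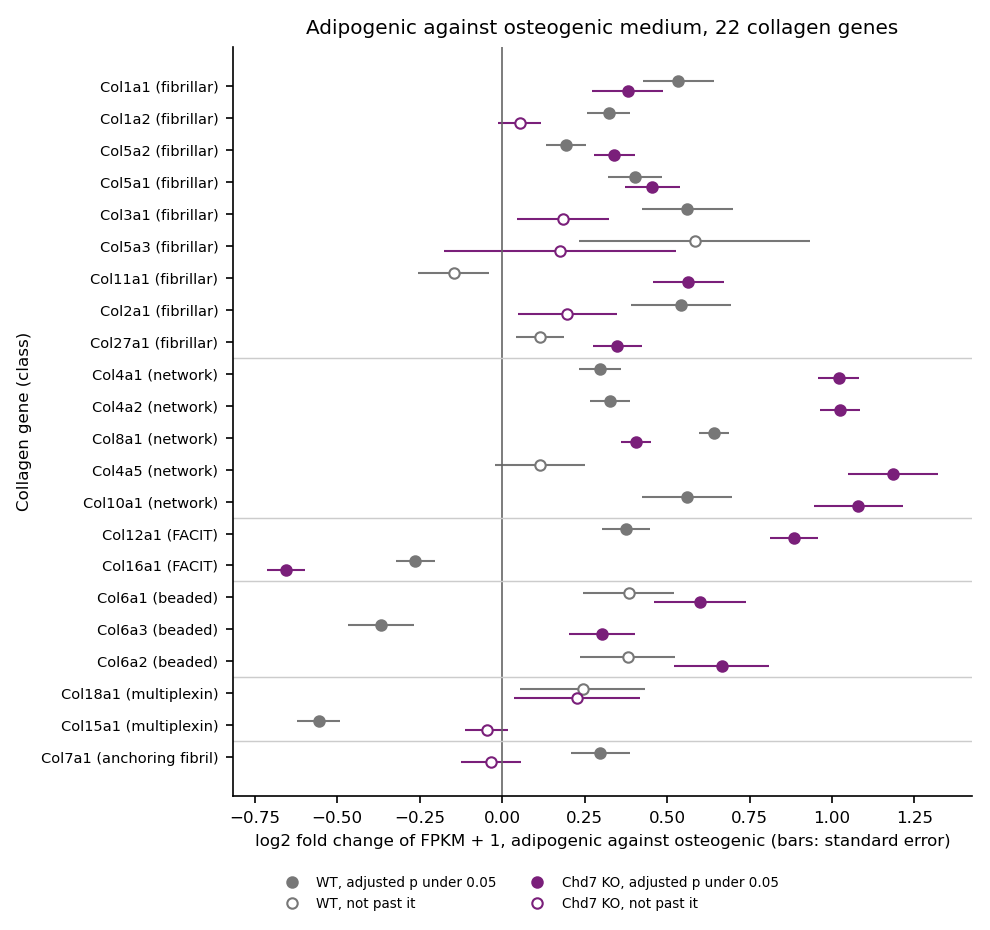
Log2 fold change of FPKM + 1 between adipogenic and osteogenic medium for the 22 collagen genes in WT (grey) and Chd7 KO (purple), with standard errors as bars. Filled points have an adjusted p under 0.05. Col4a1, Col4a2, Col4a5, Col10a1 and Col12a1 are at 0.88 or more in Chd7 KO, and Col15a1 is below 0 in WT and near 0 in Chd7 KO.

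The make-up of the collagen transcripts differed between the groups. Network genes held 9.09% ± 0.32 of collagen FPKM in WT and 10.3% ± 0.4 in Chd7 KO in osteogenic medium, and 8.79% ± 0.90 and 15.1% ± 0.5 after adipogenic induction. Fibrillar genes held 74.2% ± 0.2 and 75.9% ± 0.3 in osteogenic medium, and 76.6% ± 0.7 and 70.0% ± 0.3 after adipogenic induction. Beaded-filament genes held 12.3% ± 0.3 and 9.73% ± 0.20 in osteogenic medium, and 10.5% ± 0.5 and 10.3% ± 0.5 after adipogenic induction. These shares are descriptions and were not tested.

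**Figure D5:**
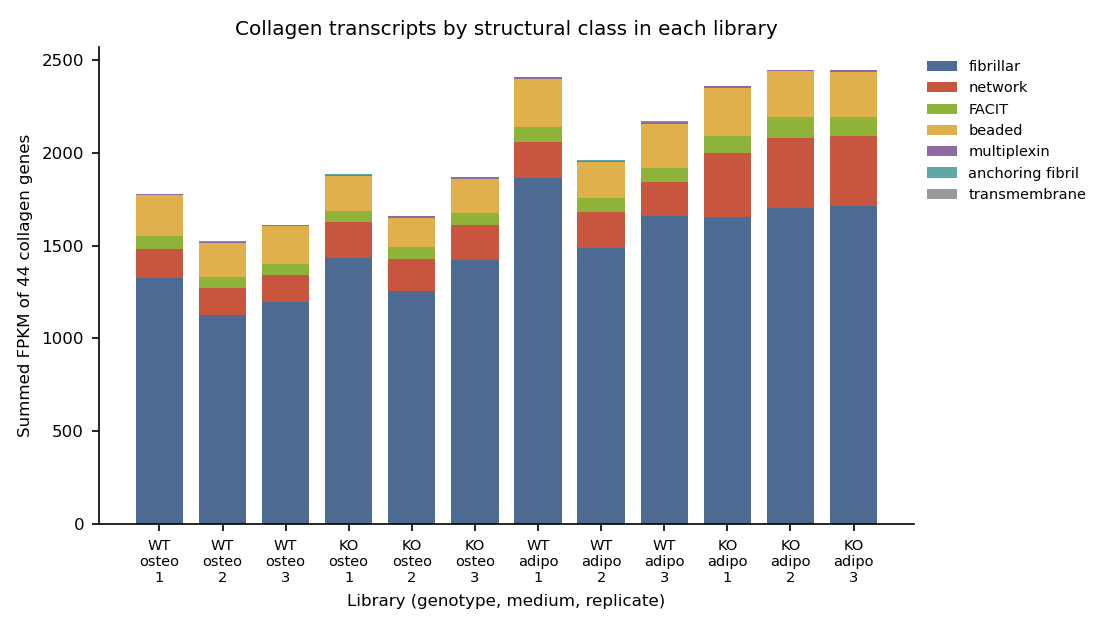
Summed FPKM of the 44 collagen genes in each library, stacked by structural class. Fibrillar genes make up the largest part of every bar, and the network part is widest in the Chd7 KO adipogenic libraries, at 15.1% on average.

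Genes that make, bind or break down collagen, or inhibit its breakdown, were counted from 4 lists. Of 29 tested genes of chain processing, secretion and cross-linking, 5 rose and 1 fell in osteogenic medium, and 9 rose and 4 fell in adipogenic medium. Over all genes tested, 4.94% rose and 4.15% fell in osteogenic and 16.7% rose and 16.5% fell in adipogenic medium, which is the background for each of the 4 lists. The gene that fell in osteogenic medium was Plod1, and those that fell in adipogenic medium were Adamts14, P3h3, Sec24d and Loxl2. The lysyl oxidases Loxl3 and Loxl4, which cross-link chains, rose in adipogenic medium from 71.3 to 130 and from 4.89 to 9.24 FPKM (log2 0.87 ± 0.08 and 0.79 ± 0.08). Plod1, a lysyl hydroxylase of collagen, fell from 46.4 to 34.8 in osteogenic medium (log2 -0.41 ± 0.06), and was at 33.2 and 38.9 in adipogenic medium (log2 0.22 ± 0.06). Adamts14, which trims the ends of procollagen, fell from 5.15 to 2.85 in adipogenic medium (-0.69 ± 0.09). Serpinh1, the collagen chaperone of the endoplasmic reticulum, was at 211 and 263 FPKM in osteogenic medium (adjusted p = 0.0209, lost in 5 of 6 left-out fits).

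Of 8 tested collagen receptors, 2 rose (Itgb1 and Mrc2) and 1 fell (Lair1) in osteogenic medium, and 3 rose (Itgb1, Ddr1 and Itga10) and 1 fell (Lair1) in adipogenic medium. The kinase receptor Ddr1 rose from 21.3 to 42.7 FPKM in adipogenic medium (log2 0.97 ± 0.08, limma adjusted p = 2.1e-05), and Itga10, the integrin chain for cartilage collagens, from 0.466 to 1.60 (0.83 ± 0.11). Without the Chd7 KO adipogenic libraries (1.54 to 1.69 FPKM) Itga10 would not have passed the filter, with the other groups at 0.340 to 1.21. Lair1, an inhibitory collagen receptor of leukocytes, fell in both media (-0.50 ± 0.06 in osteogenic and -0.25 ± 0.06 in adipogenic). Of 12 tested fibril partners, 3 rose and 1 fell (Postn, log2 -0.24 ± 0.06) in osteogenic medium and 8 rose and 1 fell in adipogenic medium. The small leucine-rich proteoglycans Omd, Aspn and Ogn rose 5.89-fold, 6.40-fold and 2.49-fold in adipogenic medium, while Dcn fell (0.482 of the WT mean). The WT means of Omd and Aspn there were low, at 0.926 and 0.781 FPKM on 19 to 73 and 19 to 59 fragments per library. In osteogenic medium Sparc, Fn1 and Bgn rose 1.39-fold, 1.29-fold and 1.29-fold. Of 11 genes of collagen breakdown or its inhibition, 1 rose in osteogenic medium, the metalloproteinase inhibitor Timp3 (log2 1.36 ± 0.24), and 1 fell (Ctss, -0.37 ± 0.07). In adipogenic medium 0 rose and 2 fell. Mmp8, the neutrophil collagenase, fell there from 24.2 to 2.09 FPKM (log2 -2.83 ± 0.37). Mmp9 was at 1.39 and 0.299 FPKM on average (log2 -0.79 ± 0.26, limma adjusted p = 0.0398), with libraries of the genotypes that overlapped. Its call held in 1 of 6 left-out fits, without WT replicate 2 (log2 -1.17), and adjusted p was 0.0766 to 0.14 in the others. In adipogenic medium 7 of the 10 macrophage markers also fell. Their part in the values of Lair1, Mmp8, Mmp9 and Ctss was not tested.

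The 22 genes below the filter were 2 fibrillar, 4 network, 7 FACIT, 5 beaded and 4 transmembrane genes. Col11a2, the partner of Col11a1 in type XI, was the highest of them by mean level, at 0.549 to 1.24 FPKM over the 12 libraries, and its lowest and highest libraries were WT osteogenic and Chd7 KO adipogenic. Col24a1, a fibrillar chain of developing bone, was at 0.0965 to 0.252 FPKM in the 6 osteogenic libraries and at 0.622 to 0.902 in the 6 adipogenic ones, with no overlap. The other 20 stayed at or below 0.592 FPKM in every library, and 10 of them had under 50 fragments over all 12 libraries together.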

How the data were processed

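RNA-seq was performed on 12 MSC libraries in 4 groups of 3, grouped by their labels. The authors deposited 1 table of FPKM with a column per library and 54532 Ensembl genes, of which 54495 had a symbol in GENCODE M21. Per the labels, the submitters' processing notes name Bowtie 0.12.2 and mm9 without a role, while the study's methods list other alignment software, and which of them made the table is not given in the sources used here. Neither are the annotation and the use of strand, so reads of overlapping genes cannot be told apart. Whole fragments were recovered from the FPKM and exonic lengths, with 98.2% to 98.4% of values under 30 fragments whole within 0.02. These give the depth (17496340 to 21099587 fragments per library) and cover counting error only.

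A gene was tested if 3 or more libraries had 1 FPKM or more (12871 genes), with limma 3.58.1 in R 4.3.3 on log2(FPKM + 1), with a mean per group, a trend of variance on mean, and p-values adjusted over all genes tested by Benjamini and Hochberg (threshold 0.05). Fold changes on this scale understate the change of low genes. Count models were not used as main tests, since the values are FPKM. Chain ratios were compared with exact permutation tests. Figures were drawn with matplotlib 3.10.9. The procedure was tested on simulated data.

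The collagen genes and the lists were chosen with earlier results of these data known. Named are all collagen genes above the filter, with every library for the highest of each class, for those changed by at least 0.5 (log2) between genotypes and for the 5 largest interaction differences, and up to 3 list genes per direction. Alternatives were a pseudocount of 0.1, no filter, an equal sum of FPKM (TPM), median ratio scaling, a fit without the trend, a fit of the 6 libraries of a comparison alone, a replicate block, voom on the recovered fragments and each library left out. Scaling to the stromal marker sum and the block within 6 libraries were chosen after seeing the data. The promoter windows come from RefSeq, and 35 of 44 collagen genes had one.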

Additional observations from a re-analysis of the deposited data

Results flagged for a closer look

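The genotype effect of 9 collagen genes and 16 list genes differed between the media (limma, interaction term, adjusted p under 0.05). Values are the log2 fold change of Chd7 KO against WT in adipogenic medium minus that in osteogenic medium. Among the collagen genes the difference was 1.07 for Col4a5, 0.72 for Col4a1, 0.71 for Col11a1, 0.70 for Col4a2, 0.67 for Col6a3, 0.51 for Col12a1 and 0.51 for Col15a1. It was -0.24 for Col8a1 and -0.39 for Col16a1.

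Of the processing genes, it was 0.71 for Loxl3, 0.71 for Loxl4 and 0.63 for Plod1. It was -1.05 for Adamts14, -0.60 for P3h3 and -0.51 for Loxl2. Of the receptors, it was 1.04 for Itga10, kept by the filter only through the Chd7 KO adipogenic libraries, 0.82 for Ddr1 and -0.23 for Mrc2. Of the fibril partners, it was 1.74 for Aspn, 1.54 for Omd, 0.68 for Postn and -0.31 for Sparc. Of the breakdown list, it was -1.86 for the inhibitor Timp3, -1.35 for Mmp9 and -3.43 for Mmp8. Plod1 and Postn fell in osteogenic and rose in adipogenic medium, and Adamts14 and P3h3 did the reverse.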

How the results depend on the processing

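Counts of calls depended mainly on the libraries and the scaling. With an equal sum of FPKM, 526 genes were called between genotypes in osteogenic medium, among them 3 collagen genes, and the WT comparison of media called 6 collagen genes. In adipogenic medium the calls over all genes then split into 3252 higher and 900 lower, against 2153 and 2123 as deposited. With only the 6 libraries compared, the counts were 3418 (osteogenic, genotype), 1671 (adipogenic, genotype) and 490 (WT, medium). Of these, 12, 12 and 3 were collagen genes. Scaled to the stromal marker sum, 3676 genes were called in osteogenic medium (356 higher, 3320 lower). With 1 library left out, the ranges were 532 to 670 genes and 4 to 7 collagen genes (osteogenic, genotype), 2791 to 6569 genes (adipogenic, genotype), 1361 to 6156 genes and 9 to 20 collagen genes (WT, medium) and 1798 to 5434 genes (interaction). The highest value of the last 3 ranges came without WT adipogenic replicate 2. Deviations from the group means correlated at -0.29 to 0.47 between libraries of the same number. With 3 libraries per group this cannot tell whether the numbers pair the libraries, and the main fit did not pair them. With the replicate number as a block, 1018, 4167, 2907, 3471 and 2473 genes and 8, 12, 16, 14 and 9 collagen genes were called in the order genotype in osteogenic and adipogenic medium, medium in WT and Chd7 KO, and interaction. Within the 6 libraries compared, the block gave 2796 genes with 13 collagen genes (osteogenic, genotype) and 726 genes with 7 collagen genes (adipogenic, genotype). With limma it gave 0 genes (WT, medium), where 3034 genes and 17 collagen genes had an unadjusted p under 0.05. Of the 110 pairs of a collagen gene and a comparison, 30 passed the threshold in no setting, and 17 of these 30 took the other sign in at least 1 setting, over all 5 comparisons. Among values past the threshold in some setting but not as deposited, the sign turned in adipogenic medium, to 0.0267 for Col3a1 with an equal sum of FPKM, and to -0.0437 for Col16a1 and -0.0200 for Chd7 scaled to the stromal sum. Among list genes, Adamts14 and Postn (osteogenic) kept their call in 0 of 6 left-out fits, Fn1 (osteogenic) in 3, and Mmp9 and Loxl2 (adipogenic) in 1 each, without WT replicate 2. The interaction calls of Sparc, Mrc2 and Mmp9 held in 2, 3 and 3 of 12. At these depths, genes with few fragments, such as Col10a1, are measured least precisely. The causes were not tested.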

Other observations

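The promoter windows of the collagen genes were also read for a TATA box (TATAAA) and a GC box (GGGCGG), on either strand. Of the 18 windows of collagen genes above the filter, 2 held TATAAA (Col3a1 and Col10a1) and 13 held GGGCGG. The shares over all 32851 windows were 13.6% and 35.7%. Of the 17 windows of collagen genes below the filter, 3 held TATAAA and 9 held GGGCGG. These matches are descriptions of the letters in the windows.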
